A study of Papio anubis with 588 samples.

Results

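The genes described here are a set of 32 genes of endoplasmic reticulum (ER) stress and protein folding, followed in liver, muscle and adipose tissue of captive olive baboons (Papio anubis). They were chosen by symbol for their known function, and 31 of them are among the 34178 genes of the count tables. CRELD2, the remaining gene, is not analysed here. The study sampled 99 animals by biopsy before and after a change of diet, and RNA was sequenced. The HCHF libraries were made after 2 years on a diet high in cholesterol and fat, and the LCLF libraries at 0 years, on a diet low in both. There were 87 HCHF and 95 LCLF libraries of liver, 98 HCHF and 96 LCLF libraries of muscle, and 95 HCHF and 99 LCLF libraries of adipose tissue. Tests of the diet used only animals with an HCHF and an LCLF library of the same tissue (84 with liver, 95 with muscle, 95 with adipose tissue), so the replicates are animals. Animals kept on the LCLF diet were not analysed here, and a difference between HCHF and LCLF libraries therefore also holds 2 years of age and time.

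Secreted and membrane proteins are folded in the ER by chaperones, lectins and disulfide isomerases, and a protein that fails to fold is carried back to the cytosol and degraded. When unfolded proteins build up, the ER membrane sensors IRE1 (ERN1), PERK (EIF2AK3) and ATF6 start the unfolded protein response. IRE1 splices the XBP1 transcript, ATF6 is cleaved to a transcription factor, and both raise chaperone and degradation genes. PERK slows translation and raises ATF4, whose targets serve amino acid supply and, under lasting stress, cell death. Liver, which secretes most plasma proteins, is rich in this machinery. Counts per gene do not separate spliced from unspliced XBP1 and do not measure the cleavage of ATF6 or any protein.

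Total counts per library ran from 6.51 to 38.46 M counts, with a median of 19.5 M. By the labels' protocols the animals were processed in 2 library batches. Which animal belongs to which batch was inferred from the data, and the 93 libraries taken as batch 1 had a median of 10.95 M, against 20.1 M in the 477 of batch 2. Defining markers of each labelled tissue were present in it, with a median of 201600 CPM (counts scaled to a common library size by the TMM method) on hepatocyte markers in liver libraries and 235400 CPM on myocyte markers in muscle libraries. Adipocyte markers had a median of 14470 CPM in adipose libraries. Some libraries held markers of another of these tissues or few of their own, namely 6 of liver, 4 of muscle and 18 of adipose tissue, from 5, 3 and 15 animals, and results were also computed without those animals. A bulk sample does not tell fewer cells of a type from less RNA per cell.

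On the LCLF diet, most of the folding machinery was most abundant in liver and least abundant in muscle. Median levels ran in the order liver, adipose tissue, muscle for 25 of the 31 genes. Within animals, 26 genes were higher and 5 lower in liver than in muscle (limma with Benjamini-Hochberg adjustment, n = 92 animals), where 47.3% of all genes tested were higher and 45% lower. Against adipose tissue, 27 were higher and 2 lower in liver (n = 95), beside 42.9% and 49.5% of all genes. Adipose tissue exceeded muscle for 25 genes and was below it for 5 (n = 96), beside 54.5% and 38.9%, and the median of all genes in that comparison was itself shifted by 0.29 on the log2 scale. The median difference over the 31 genes was 1.82 for liver minus muscle, 1.14 for liver minus adipose tissue and 0.57 for adipose tissue minus muscle, where all genes had medians of 0.04, -0.09 and 0.29.

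Among chaperones, HSPA5 (BiP), the ER member of the HSP70 family that also holds the sensors inactive, had LCLF levels of 145, 474 and 1060 CPM (lowest, median and highest) in liver. In adipose tissue they were 106, 184 and 595 CPM and in muscle 28.5, 106 and 156 CPM. The lowest liver library lay below the highest libraries of both other tissues, so the ranges overlapped. Its liver level was 4.52-fold that of muscle within animals (log2 difference 2.18 ± 0.06, SE, limma, adjusted p = 1.8e-54) and 2.47-fold that of adipose tissue. HSP90B1, the ER member of the HSP90 family, had LCLF medians of 694 CPM in liver, 281 CPM in adipose tissue and 103 CPM in muscle. CALR, a lectin chaperone of the ER lumen, was 6.84-fold higher in liver than in muscle, and CANX, its membrane-bound relative, 1.87-fold. MANF, a secreted factor that binds BiP, had medians of 70.4 CPM in liver, 25.6 CPM in adipose tissue and 8.22 CPM in muscle. PDIA4, a disulfide isomerase, showed the steepest order of the 4 isomerases, with LCLF medians of 361 CPM in liver, 75.5 CPM in adipose tissue and 14.3 CPM in muscle. P4HB, the classical protein disulfide isomerase, was 5.31-fold higher in liver than in muscle, yet adipose tissue exceeded muscle by 0.09 ± 0.04 on the log2 scale only (adjusted p = 0.0188).

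Of the degradation genes, EDEM1, which extracts misfolded glycoproteins from the folding cycle, was 12.3-fold higher in liver than in muscle. Its medians were 224 CPM in liver, 49.4 CPM in adipose tissue and 17.0 CPM in muscle. XBP1, the transcription factor of the IRE1 arm, was 9.75-fold higher in liver than in muscle, with medians of 361 CPM in liver, 59.0 CPM in adipose tissue and 41.5 CPM in muscle. ERN1, the sensor that splices it, had medians of 65.5 CPM in liver, 17.8 CPM in adipose tissue and 13.99 CPM in muscle. DERL1, a channel component of the degradation machinery, did not pass the test between adipose tissue and muscle (-0.01 ± 0.03, SE, limma, adjusted p = 0.722). DERL3, a derlin abundant in secretory cells, missed the threshold between liver and adipose tissue (0.25 ± 0.13, adjusted p = 0.0573).

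Several genes of the ATF4 arm had another order. ATF4, the transcription factor induced through PERK, had LCLF levels of 500, 1159 and 2240 CPM in muscle, against 172, 300 and 459 CPM in liver and 171, 294 and 523 CPM in adipose tissue. Each muscle library exceeded the highest liver library. Liver and adipose levels of ATF4 differed by 0.0006 ± 0.04 on the log2 scale (adjusted p = 0.988). DDIT3 (CHOP), a transcription factor of ER stress-induced cell death, and HERPUD1, an ER membrane protein of the degradation complex, also stood in the order muscle, liver, adipose tissue. ASNS, the asparagine synthetase, ran the other way from the chaperones, with medians of 12.5 CPM in adipose tissue, 2.23 CPM in muscle and 0.529 CPM in liver. CHAC1, which degrades glutathione, had medians of 2.29 CPM in muscle, 0.449 CPM in adipose tissue and 0.255 CPM in liver. Both genes were near the detection limit in liver, where the median LCLF counts per library were 7 for ASNS and 4 for CHAC1. TRIB3, a pseudokinase, kept the order liver, adipose tissue, muscle, with medians of 26.0 CPM in liver, 0.554 CPM in adipose tissue and 0.125 CPM in muscle. SESN2, a sestrin that restrains growth signalling, had the order liver, muscle, adipose tissue, with medians of 40.2, 12.7 and 8.61 CPM.

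**Figure D1:**
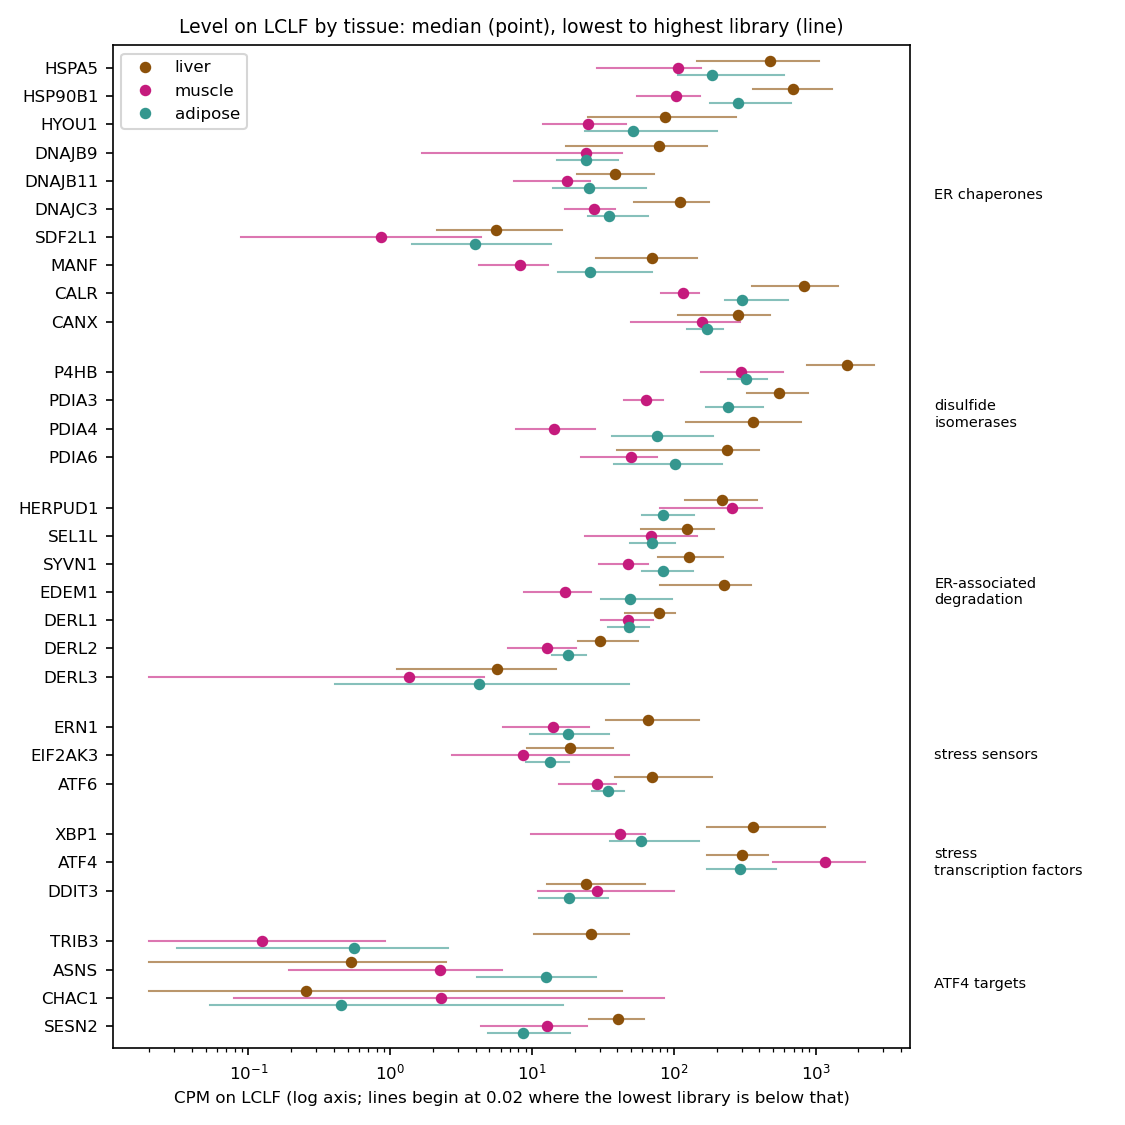
Level of each of the 31 genes on the LCLF diet, in CPM on a log axis, by role (point, median; line, lowest to highest library; n = 95 liver, 96 muscle and 99 adipose libraries). Liver points lie to the right of the other tissues' points for chaperones and isomerases, whereas ATF4 is highest in muscle (median 1159 CPM) and ASNS in adipose tissue (median 12.5 CPM).

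In liver, 16 of the 30 genes tested fell after the HCHF diet, among them the chaperones HSPA5 and CALR and the sensor ATF6, and 1 rose, beside 27.1% lower and 22.3% higher of all 14919 genes tested (edgeR's quasi-likelihood test, blocked by animal, Benjamini-Hochberg adjustment over all genes, n = 84 animals). CHAC1 was below the filter on low counts in liver. The median log2 fold change was -0.11 over the 30 genes and -0.03 over all genes, and 27 of the 30 estimates were below 0. By role, 7 of 10 chaperones, 2 of 4 disulfide isomerases, 4 of 7 degradation genes and 2 of 3 sensors fell, and 0 of these 24 rose, with none higher at an unadjusted p under 0.05 either. The transcription factors XBP1, ATF4 and DDIT3 were at -0.05 ± 0.05, -0.04 ± 0.03 and -0.01 ± 0.06 and did not pass the test. The largest fall was 0.26 on the log2 scale, in DNAJB9.

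HSPA5 ranged over 84.3, 398 and 949 CPM (lowest, median, highest) in HCHF livers, against 145, 474 and 1060 CPM in LCLF livers. Both groups overlapped over most of their range. It fell by 0.205 ± 0.07 on the log2 scale (adjusted p = 0.0165) and was lower in 55 of 84 animals. DNAJB9, a BiP cochaperone that damps IRE1, showed the largest fall, with 8.78, 63.0 and 150 CPM in HCHF livers, against 17.5, 78.9 and 172 CPM in LCLF livers. It fell by 0.26 ± 0.07 (adjusted p = 0.00225) and was lower in 56 animals. CALR had 270, 683 and 1614 CPM in HCHF livers, against 353, 821 and 1433 CPM in LCLF livers, and fell by 0.21 ± 0.06 (adjusted p = 0.000898). MANF fell by 0.22 ± 0.07 and the cochaperones DNAJC3 and DNAJB11 by 0.16 ± 0.04 and 0.14 ± 0.05. HSP90B1 fell by 0.10 ± 0.04, close to the threshold (adjusted p = 0.046), and did not pass without the animals of the libraries in doubt (-0.10, adjusted p = 0.082). HYOU1, a large HSP70 relative that recharges BiP, was at -0.17 ± 0.09 and did not pass, nor did CANX at -0.08 ± 0.05. SDF2L1, which works with DNAJB11, was the chaperone above 0, at 0.03 ± 0.08.

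Of the disulfide isomerases, PDIA3, the partner of the lectin chaperones, had 191, 484 and 1047 CPM in HCHF livers, against 330, 546 and 884 CPM in LCLF livers. It fell by 0.19 ± 0.04 (adjusted p = 0.000128) and was lower in 56 animals. PDIA4 fell by 0.15 ± 0.04. PDIA6 (-0.12 ± 0.06) and P4HB (-0.07 ± 0.04) did not pass. In the degradation branch SYVN1 (HRD1), the ubiquitin ligase, had 51.4, 109 and 218 CPM in HCHF livers, against 77.7, 128 and 221 CPM in LCLF livers. It fell by 0.18 ± 0.04 (adjusted p = 6.81e-05) and was lower in 57 animals. Its partner SEL1L fell by 0.10 ± 0.04, EDEM1 by 0.17 ± 0.04 and DERL1 by 0.09 ± 0.03. The other three (HERPUD1, DERL2 and DERL3) lay between -0.07 and -0.05 and did not pass.

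Of the sensors, ATF6 had 30.7, 58.9 and 267 CPM in HCHF livers, against 38.5, 69.5 and 185 CPM in LCLF livers. It fell by 0.20 ± 0.05 (adjusted p = 0.000289) and was lower in 60 of 84 animals. Within batches it was at -0.03 in batch 1 and -0.23 in batch 2. In 1 of the 13 animals of batch 1 it went from 96.1 CPM on LCLF to 267 CPM on HCHF. The part of this animal in the batch 1 value was not tested. ERN1 fell by 0.15 ± 0.05, and EIF2AK3 was at -0.03 ± 0.05. The ATF4 targets divided. ASNS was higher, at 0, 0.695 and 2.97 CPM in HCHF livers, against 0, 0.529 and 2.48 CPM in LCLF livers. It rose by 0.45 ± 0.12 (adjusted p = 0.00112) and was higher in 55 animals, from a median of 11 counts per HCHF library and 7 per LCLF library. At a minimum mean of 1 CPM it was not tested. Its change was 0.71 when libraries that failed the authors' quality control were added back (limma-voom). SESN2 had 22.9, 34.7 and 422 CPM in HCHF livers, against 25.2, 40.2 and 61.5 CPM in LCLF livers, and it fell by 0.11 ± 0.05 (adjusted p = 0.0353), a call lost without the animals in doubt (-0.11, adjusted p = 0.0634). Its highest HCHF library lay far above the others. TRIB3 was at 0.01 ± 0.05, with 42 animals higher and 42 lower.

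Animals differed widely around these means. The median change of the 14 chaperones and isomerases within an animal had a lowest value of -1.06, a median of -0.15 and a highest value of 0.86 on the log2 scale. It was below 0 in 53 and above 0 in 31 of 84 animals. In 17 animals all 14 genes were lower on HCHF, and in 9 animals all 14 were higher.

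Markers of other cell types moved in the same libraries. Hepatocyte markers fell for 10 of 12 genes (summed level 53380, 197500 and 234200 CPM in HCHF livers, against 151700, 207800 and 261500 CPM in LCLF livers). Macrophage markers rose for 8 of 9 genes tested (summed level 498, 1044 and 1897 CPM in HCHF livers, against 252.1, 820.5 and 1416 CPM in LCLF livers). T and NK cell, neutrophil, endothelial and fibroblast markers rose for 8 of 8, 5 of 5, 9 of 9 and 8 of 8 genes, plasma and B cell markers for 6 of 9 and erythroid markers for 2 of 2 (summed median 84.9 CPM in HCHF and 33.8 CPM in LCLF livers). Clock genes, which vary with the time of day, fell for 6 of 13. The part of clock genes in the results was not tested. With the changes of 5 summed marker levels (hepatocyte, macrophage, endothelial, fibroblast and erythroid) as covariates (limma, an analysis chosen after seeing the data), 0 of the 30 genes were lower, also at an unadjusted p under 0.05. Of all 14919 genes, that fit called 540 higher and 732 lower, against 3323 and 4046 without the covariates. Each estimate of that fit is the change of an animal in which none of the 5 sums changed. There, 22 estimates were above 0, 6 of them at an unadjusted p under 0.05. Shares of all genes at an unadjusted p were not counted in any fit. P4HB passed as higher (0.19, adjusted p = 0.0244), HSPA5 was at 0.21 (adjusted p = 0.289) and ASNS at -0.08 (adjusted p = 0.817). In batch 1 alone (13 animals) 0 genes passed in either direction by limma-voom (640 higher and 294 lower of all 13485 genes), with 8 lower and 0 higher at an unadjusted p under 0.05, and HSPA5 was at -0.23 there and at -0.21 in batch 2.

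In muscle, a few folding genes were slightly higher after the HCHF diet. Of 30 genes tested, 6 rose and 1 fell, beside 6.65% higher and 7.91% lower of all 13621 genes tested (edgeR's quasi-likelihood test, Benjamini-Hochberg adjustment, n = 95 animals). TRIB3 was below the filter in muscle, with 28 of 98 HCHF and 33 of 96 LCLF libraries at 0 counts. The median log2 fold change was 0.05 over the 30 genes and 0.00 over all genes. Those that rose were the chaperones HSPA5, HYOU1 and CANX, the isomerases PDIA4 and PDIA6, and DERL1. None of the sensors, transcription factors or ATF4 targets passed.

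HSPA5 had 40.9, 113 and 709 CPM in HCHF muscle, against 28.5, 106 and 156 CPM in LCLF muscle. The groups overlapped, except that 1 HCHF library lay far above all others. It rose by 0.14 ± 0.05 (adjusted p = 0.0387) and was higher in 56 of 95 animals. CANX had 61.5, 162 and 500 CPM in HCHF muscle, against 49.6, 157 and 292 CPM in LCLF muscle. It rose by 0.15 ± 0.04 (adjusted p = 0.00878) and was higher in 64 animals. PDIA4 rose by 0.16 ± 0.05, PDIA6 by 0.12 ± 0.03 and HYOU1 by 0.11 ± 0.04. DERL1 had 28.8, 53.0 and 159 CPM in HCHF muscle, against 30.7, 47.3 and 71.6 CPM in LCLF muscle, and rose by 0.13 ± 0.03 (adjusted p = 0.00411), higher in 66 animals. DNAJB9 (0.19 ± 0.08) and XBP1 (0.12 ± 0.05) missed the threshold, with adjusted p = 0.0895 and 0.0775. Of the sensors, ERN1 was at -0.02 ± 0.06, EIF2AK3 at 0.02 ± 0.07 and ATF6 at 0.05 ± 0.03.

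DERL3 fell in muscle by 0.34 ± 0.11 (adjusted p = 0.0287), lower in 56 of 95 animals, from 0.0905, 0.992 and 5.11 CPM in HCHF muscle, against 0, 1.36 and 4.60 CPM in LCLF muscle. The ranges overlapped almost completely, the median counts were 12 in HCHF and 16 in LCLF libraries, and 6 of the 10 other analyses in which it had a value did not call it (adjusted p = 0.0504 to 0.242). Plasma and B cell markers, cells in which DERL3 is abundant, passed for 0 of 3 genes tested in muscle, and POU2AF1, MS4A1 and PAX5 had medians of 0. The ATF4 targets had wide errors, with CHAC1 at -0.25 ± 0.22, ASNS at -0.07 ± 0.09 and SESN2 at -0.03 ± 0.06. CHAC1 reached 101 CPM in HCHF and 85.0 CPM in LCLF muscle, where its medians were 1.78 and 2.29 CPM.

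Within animals, the median change of the 14 chaperones and isomerases in muscle ranged from -0.55 to 1.41, with a median of 0.08, and was above 0 in 60 of 95 animals. All 14 genes were higher in 2 animals and lower in 0. Beside these changes, myocyte markers fell for 6 of 11 genes (summed median 228800 CPM in HCHF and 241600 CPM in LCLF muscle) and endothelial markers for 7 of 9, while macrophage markers rose for 5 of 7, T and NK cell markers for 4 of 5 and fibroblast markers for 4 of 8. Clock genes rose for 2 of 13 and fell for 1 (15.4% and 7.69%, beside 6.65% and 7.91% of all genes). The part of T and NK cell markers and clock genes was not tested. With marker sums as covariates (limma) 0 of the 30 genes passed, in a fit that called 118 higher and 132 lower of all 13621 genes. At an unadjusted p under 0.05, for which no share of all genes was counted, 2 were higher and 3 lower. HSPA5 was at -0.0028 (adjusted p = 0.987). In batch 1 alone (16 animals, limma-voom) 0 of 28 genes passed (13 higher and 3 lower of all 12284 genes), with 3 higher and 0 lower at an unadjusted p under 0.05, and HSPA5 was at 0.27 there and at 0.12 in batch 2.

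**Figure D2:**
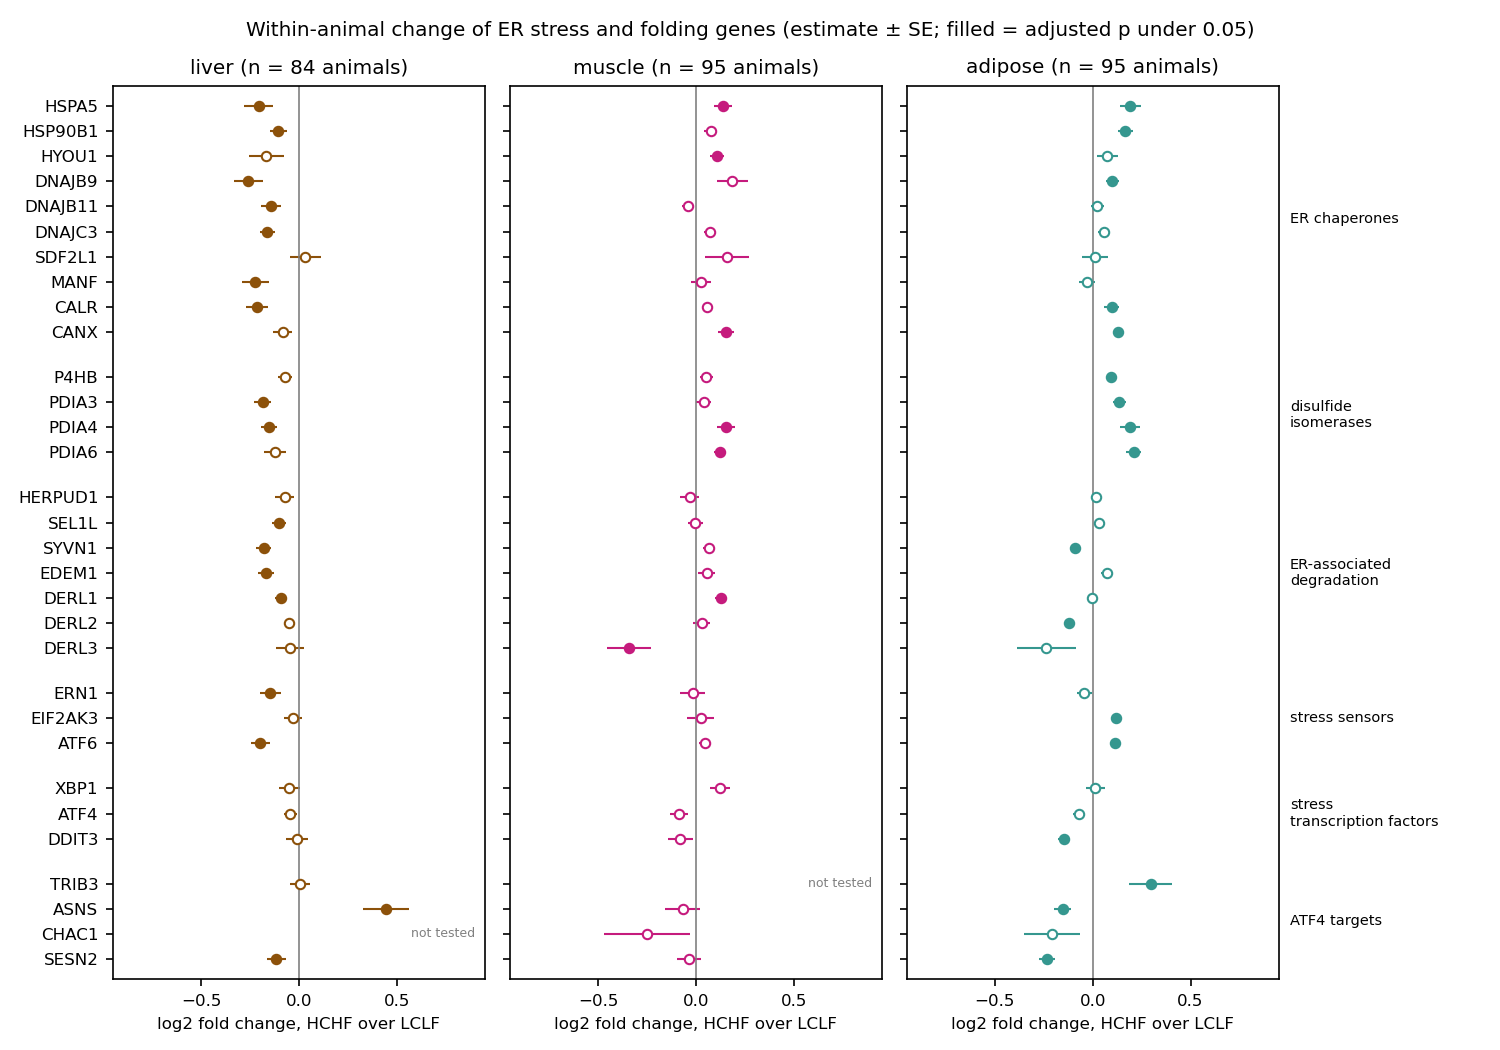
Within-animal change of each gene in liver, muscle and adipose tissue, as the log2 fold change of HCHF over LCLF with its SE (points and bars; filled points passed at an adjusted p under 0.05). Most points of chaperones and isomerases lie left of 0 in liver (HSPA5 -0.205) and right of 0 in muscle (HSPA5 0.14) and adipose tissue (HSPA5 0.19), and ASNS stands alone to the right in liver (0.45).

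In adipose tissue, 5 chaperones, all 4 isomerases, 2 sensors and TRIB3 were higher after the HCHF diet, while SYVN1, DERL2, DDIT3, ASNS and SESN2 were lower. Of 31 genes tested, 12 rose and 5 fell, beside 18.7% higher and 19.9% lower of all 16827 genes tested (edgeR's quasi-likelihood test, Benjamini-Hochberg adjustment, n = 95 animals). The median log2 fold change was 0.03 over the 31 genes and 0.00 over all genes. By role, 5 of 10 chaperones and 4 of 4 isomerases rose, with 0 lower, also at an unadjusted p under 0.05. Of the 7 degradation genes 2 fell and the others did not pass.

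HSPA5 had 132, 214 and 424 CPM in HCHF adipose tissue, against 106, 184 and 595 CPM in LCLF adipose tissue. The groups overlapped, and the highest library was an LCLF one. It rose by 0.19 ± 0.05 (adjusted p = 0.00208) and was higher in 69 of 95 animals. PDIA6 had 43.1, 120 and 180 CPM in HCHF adipose tissue, against 37.9, 101 and 219 CPM in LCLF adipose tissue. It rose by 0.21 ± 0.04 (adjusted p = 1.39e-05) and was higher in 68 animals. PDIA4 rose by 0.19 ± 0.05, PDIA3 by 0.14 ± 0.03 and P4HB by 0.10 ± 0.03. HSP90B1 rose by 0.17 ± 0.04, CANX by 0.13 ± 0.02, and DNAJB9 and CALR by 0.10 ± 0.03 and 0.10 ± 0.04. The remaining chaperones lay between -0.03 (MANF) and 0.07 (HYOU1) and did not pass.

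ATF6 had 27.9, 37.6 and 47.1 CPM in HCHF adipose tissue, against 26.3, 34.4 and 44.4 CPM in LCLF adipose tissue. Its values were tight within each diet, and the shift was small beside the overlap. It rose by 0.11 ± 0.02 (adjusted p = 8.31e-08) and was higher in 73 of 95 animals, the most of any of these genes in this tissue. EIF2AK3 rose by 0.12 ± 0.03 (adjusted p = 0.000504), whereas ERN1 (-0.04 ± 0.04) and XBP1 (0.01 ± 0.05) did not pass. In the degradation branch DERL2 had 13, 16.6 and 26.9 CPM in HCHF adipose tissue, against 13.9, 17.9 and 24.0 CPM in LCLF adipose tissue. It fell by 0.12 ± 0.02 (adjusted p = 2.54e-06), lower in 69 animals. SYVN1 fell by 0.09 ± 0.02. DERL3 was at -0.24 ± 0.15 and did not pass, and it ranged up to 53.1 CPM in HCHF and 48.5 CPM in LCLF adipose tissue around medians of 3.39 and 4.22 CPM. Plasma and B cell markers rose there for 2 of 9 genes (22.2%), close to the 18.7% of all genes. Their sums were 20.25 to 4278 CPM in HCHF and 21.1 to 4598 CPM in LCLF libraries.

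Of the ATF4 arm in adipose tissue, SESN2 had 4.37, 7.61 and 13.9 CPM in HCHF libraries, against 4.92, 8.61 and 18.5 CPM in LCLF libraries. It fell by 0.23 ± 0.04 (adjusted p = 2.88e-06) and was lower in 70 of 95 animals. ASNS fell by 0.15 ± 0.04 (adjusted p = 0.00341) and DDIT3 by 0.15 ± 0.03 (adjusted p = 0.000124), and ATF4 was at -0.07 ± 0.03 (adjusted p = 0.0558). TRIB3, from medians of 24 counts per HCHF and 20 per LCLF library, moved the other way, with 0.125, 0.680 and 4.71 CPM in HCHF libraries, against 0.0316, 0.554 and 2.57 CPM in LCLF libraries. It rose by 0.30 ± 0.11 (adjusted p = 0.0237), higher in 53 animals, and without the animals of the libraries with markers of another tissue it did not pass (0.25, adjusted p = 0.064). CHAC1 was at -0.21 ± 0.15.

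The median change of the 14 chaperones and isomerases within an animal ranged from -1.31 to 0.94 in adipose tissue, with a median of 0.13, and was above 0 in 63 of 95 animals. All 14 genes were higher in 13 animals and lower in 4. In the same libraries macrophage markers rose for 8 of 9 genes (summed level 255.5, 1100 and 2961 CPM in HCHF libraries, against 84.6, 818 and 3093 CPM in LCLF libraries), neutrophil markers for 5 of 5, fibroblast markers for 7 of 8 and mesothelial markers for 5 of 6, and endothelial markers fell for 4 of 9. Erythroid markers rose for 2 of 2 (summed median 1599 CPM in HCHF and 844 CPM in LCLF libraries). T and NK cell markers rose for 2 of 8 (25%) and immediate early genes for 2 of 10 (20%), close to the 18.7% of all genes. Clock genes fell for 8 of 13 and rose for 3. The part of T and NK cell markers, immediate early genes and clock genes was not tested. Of adipocyte markers 1 of 8 rose and 2 fell (12.5% and 25%, beside 18.7% and 19.9% of all genes). With marker sums as covariates (limma) CANX and ATF6 remained higher and DERL2 and SESN2 lower (801 higher and 599 lower of all 16827 genes), and the other genes did not pass. In batch 1 alone (16 animals, limma-voom) 0 genes passed (0 higher and 1 lower of all 15601 genes). At an unadjusted p under 0.05, for which no share of all genes was counted, 2 were higher and 2 lower. HSPA5 was at 0.12 in batch 1 and at 0.21 in batch 2.

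**Figure D3:**
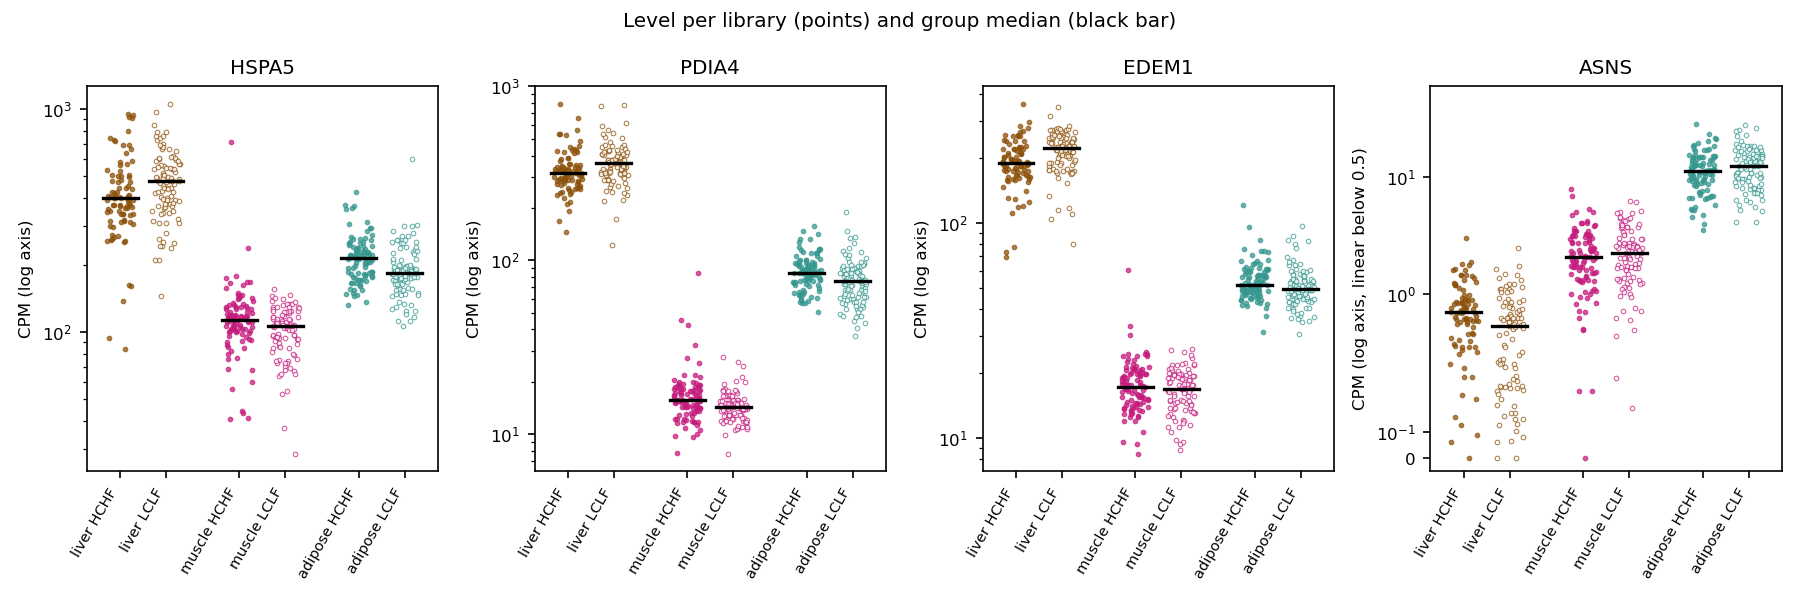
Level in every library of HSPA5, PDIA4, EDEM1 and ASNS, in CPM, by tissue and diet (points, libraries, filled for HCHF; black bar, group median; log axes, linear below 0.5 CPM for ASNS). The groups overlap in each tissue: the HSPA5 medians are 398 CPM in HCHF and 474 CPM in LCLF livers, and 1 HCHF muscle library stands at 709 CPM.

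Other genes of the same pathways were counted in each tissue. Of all genes tested, 27.1% fell and 22.3% rose in liver, 7.91% and 6.65% in muscle, and 19.9% and 18.7% in adipose tissue. Of 24 other ER folding genes, 9 fell in liver (37.5%) and the others did not pass (median -0.05), 1 rose and 1 fell in muscle (4.17% each, median 0.02), and 7 rose (29.2%) and 2 fell (8.33%) in adipose tissue (median 0.02). In liver ERO1B and ERP44, which handle disulfide exchange, fell by 0.18 ± 0.03 and 0.16 ± 0.03, and TXNDC12, a thioredoxin-like ER protein, by 0.19 ± 0.03. In adipose tissue DNAJC10, an ER disulfide reductase, rose by 0.16 ± 0.03 and the prolyl isomerases FKBP7 and FKBP14 by 0.15 ± 0.04 and 0.14 ± 0.04. Of 18 other degradation genes, 8 fell in liver (44.4%) and the others did not pass, 0 passed in muscle by edgeR (1 higher and 1 lower at an unadjusted p under 0.05), and 7 rose and 3 fell in adipose tissue. UFD1, which pulls ubiquitinated proteins from the membrane, fell by 0.20 ± 0.03 in liver, and ERLEC1, an ER lectin, rose by 0.15 ± 0.02 in adipose tissue, higher in 80 of 95 animals. Of 22 genes of ER translocation and N-glycosylation, 13 fell in liver (59.1%) and the others did not pass, 3 rose and 1 fell in muscle, and 7 rose and 1 fell in adipose tissue. SPCS1, of the signal peptidase, fell by 0.20 ± 0.03 in liver, while RPN2, of the oligosaccharyltransferase, rose by 0.17 ± 0.03 in adipose tissue.

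The other genes of the integrated stress response, to which the PERK and ATF4 arm belongs, had calls in both directions. In liver 16 of 35 fell and 5 rose (45.7% and 14.3%, beside 27.1% and 22.3% of all genes). In muscle 4 of 33 rose and 3 fell (12.1% and 9.09%, beside 6.65% and 7.91%), and in adipose tissue 6 of 35 rose and 6 fell (17.1% each, beside 18.7% and 19.9%). MTHFD2, a mitochondrial folate enzyme and ATF4 target, rose in liver by 0.53 ± 0.08 (adjusted p = 1.77e-08, 67 of 84 animals) and in muscle by 0.22 ± 0.06. VLDLR, a lipoprotein receptor that ATF4 can induce, rose by 0.55 ± 0.15 in liver, by 0.25 ± 0.08 in muscle and by 0.26 ± 0.07 in adipose tissue. DDIT4, an inhibitor of growth signalling, fell by 0.60 ± 0.16 in liver, where its median was 124 CPM in HCHF and 216 CPM in LCLF libraries. PCK2, the mitochondrial form of phosphoenolpyruvate carboxykinase, fell by 0.62 ± 0.09 in adipose tissue, lower in 74 of 95 animals. GDF15, a stress-induced hormone, rose there by 0.48 ± 0.10. STC2, a secreted stanniocalcin, rose in muscle by 0.37 ± 0.11. Heat shock genes that act outside the ER, mostly in the cytosol, had 1 of 10 higher and 4 lower in liver and 1 in each direction in adipose tissue. In liver HSPH1, a cytosolic chaperone, fell by 0.27 ± 0.09, HSPD1, the mitochondrial chaperonin, by 0.24 ± 0.09, and HSPA4L rose by 0.42 ± 0.10.

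The tissues were compared directly by testing the difference of the within-animal changes. Of 29 genes tested in liver and muscle, the liver change was lower for 16 and higher for 1 (limma with Benjamini-Hochberg adjustment, n = 80 animals), beside 16.4% lower and 16.6% higher of all genes. DNAJB9 gave the largest difference, with mean changes of -0.29 in liver and 0.18 in muscle (-0.47 ± 0.10, adjusted p = 0.000203, lower in liver in 60 of 80 animals). HSPA5 changed by -0.24 in liver and 0.13 in muscle (-0.38 ± 0.08, adjusted p = 0.000149). PDIA4 and HYOU1 followed with differences of -0.35 ± 0.07 and -0.32 ± 0.09. ASNS was the gene with the higher liver change, at 0.42 in liver and -0.03 in muscle (0.44 ± 0.13, adjusted p = 0.00575).

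Against adipose tissue, the liver change was lower for 15 and higher for 2 of 30 genes (n = 82 animals), beside 17.2% lower and 20.5% higher of all genes. ASNS changed by 0.38 in liver and -0.17 in adipose tissue (0.56 ± 0.12, adjusted p = 9.23e-05), and SESN2 by -0.10 and -0.25 (0.14 ± 0.06, adjusted p = 0.0376). HSPA5 changed by -0.20 in liver and 0.16 in adipose tissue (-0.35 ± 0.08, adjusted p = 0.000204). DNAJB9 and PDIA4 differed by -0.35 ± 0.08 and -0.31 ± 0.07, and TRIB3 by -0.36 ± 0.12 with a change of -0.0045 in liver and 0.36 in adipose tissue. ATF6 differed by -0.30 ± 0.05 (adjusted p = 8.02e-07, lower in liver in 63 of 82 animals). These 2 comparisons share the liver libraries.

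Between adipose tissue and muscle, 3 of 30 genes had a lower change in adipose tissue and 0 a higher one (limma, n = 91 animals), beside 7.12% lower and 5.72% higher of all genes. At an unadjusted p under 0.05, for which no share of all genes was counted, these counts were 4 and 0. All 3 were degradation genes. SYVN1 changed by -0.09 in adipose tissue and 0.07 in muscle (-0.17 ± 0.03, adjusted p = 0.000514), DERL2 by -0.13 and 0.02 (-0.15 ± 0.05, adjusted p = 0.0269) and DERL1 by 0.0038 and 0.14 (-0.13 ± 0.04, adjusted p = 0.0164). The difference of HSPA5 was 0.01 ± 0.07 (adjusted p = 0.96).

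In liver, animals with a larger change of HSPA5 had larger changes of most other chaperones. Across 84 animals in liver, 21 of 29 genes correlated positively with the HSPA5 change (permutation p adjusted over all genes) and 0 negatively, with 0 negative at an unadjusted p under 0.05 also. Of all genes, 18.1% were positive and 18% negative after adjustment. The leading genes were HYOU1 (r = 0.89, rho = 0.90), HSP90B1 (r = 0.88, rho = 0.86), CALR (r = 0.87, rho = 0.88), DNAJB9 (r = 0.84, rho = 0.82) and PDIA6 (r = 0.83, rho = 0.84). Each of these 5 had a permutation p of 1e-05, the smallest the permutations can give, and an adjusted p of 0.000151 for r and 0.000272 for rho. Without the 2 animals farthest from the median HSPA5 change their r lay between 0.82 and 0.89. In batch 1 it lay between 0.77 and 0.88 and in batch 2 between 0.85 and 0.89. ERN1 (r = 0.06), ATF4 (r = 0.18), DDIT3 (r = -0.08), SESN2 (r = 0.05) and ASNS (r = -0.18) did not pass. ATF6 passed with r = 0.46 (rho = 0.37), but was at -0.22 in batch 1 and 0.57 in batch 2. In 1 animal of batch 1 ATF6 went from 96.1 CPM on LCLF to 267 CPM on HCHF while HSPA5 went from 731 to 565 CPM. The part of this animal was not tested.

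In adipose tissue 22 of 30 genes correlated positively with HSPA5 across 95 animals and 0 negatively, beside 22.9% and 21.3% of all genes. At an unadjusted p under 0.05, for which no share of all genes was counted, 2 were negative. HSP90B1 (r = 0.90, rho = 0.87), CALR (r = 0.88, rho = 0.83), PDIA4 (r = 0.88, rho = 0.85), PDIA3 (r = 0.87, rho = 0.84) and HYOU1 (r = 0.86, rho = 0.82) led. Each had an adjusted permutation p of 9.65e-05 for r and 0.000114 for rho. Without the 2 farthest animals their r lay between 0.82 and 0.87, and it was 0.76 to 0.88 in batch 1 and 0.88 to 0.90 in batch 2. DNAJB9, among the leading genes in liver, had r = 0.28 here (rho = 0.25), with -0.36 in batch 1 and 0.36 in batch 2. By rho, 22 genes were positive and 1 negative, and that was ATF4 (rho = -0.25, adjusted p = 0.0372). The share of all genes by rho was not counted.

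In muscle the picture rested partly on single animals. By r, 19 of 29 genes correlated positively with HSPA5 across 95 animals and 2 negatively, beside 26.8% and 23.7% of all genes. By rho 13 were positive and 1 negative, and the share of all genes by rho was not counted. XBP1 (r = 0.81, rho = 0.66), CANX (r = 0.76, rho = 0.68), DNAJB9 (r = 0.76, rho = 0.50), HSP90B1 (r = 0.71, rho = 0.66) and DERL1 (r = 0.70, rho = 0.43) led, each with an adjusted permutation p of 9.54e-05 for r and 0.000335 for rho. Without the 2 farthest animals they stood between 0.56 and 0.75. They were 0.75 to 0.94 in batch 1 and 0.59 to 0.77 in batch 2. ERN1 passed by r (0.47) but had rho = 0.01, and without the 2 farthest animals its r was 0.0047, so its relation rests on those animals. HERPUD1 had r = 0.68 with all animals, 0.43 without those, and rho = 0.21. The negative ones were ASNS (r = -0.48, rho = -0.36, adjusted p = 9.54e-05 and 0.00337) and DDIT3 (r = -0.26, rho = -0.21, adjusted p = 0.0311 and 0.107).

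**Figure D4:**
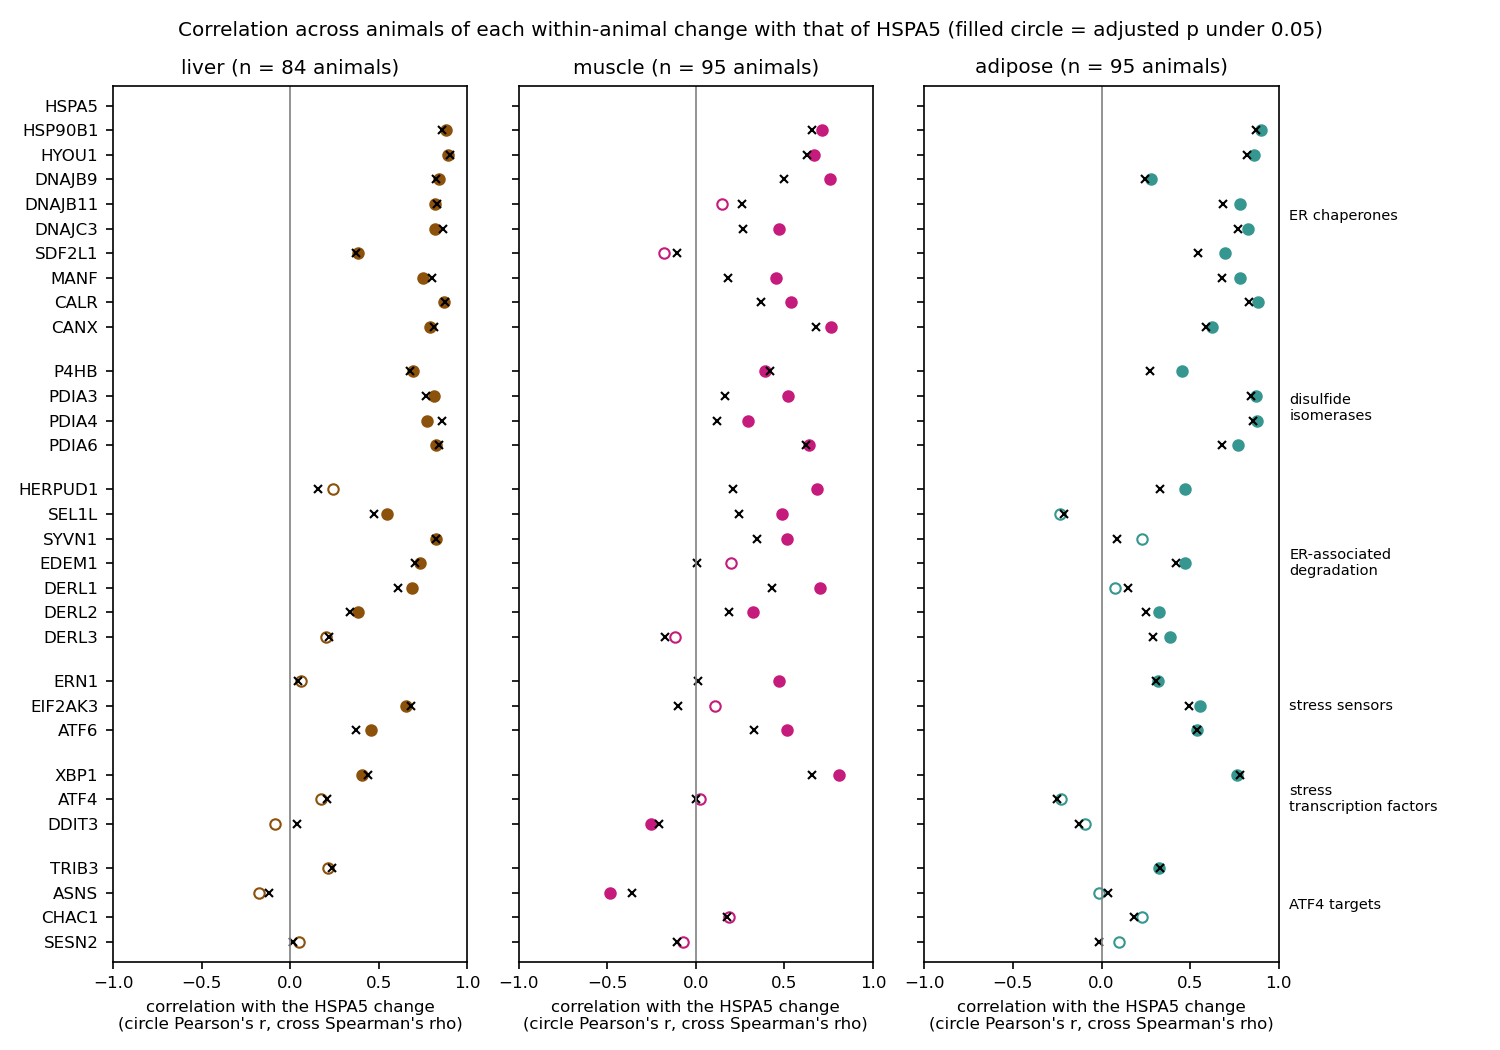
Correlation across animals of the within-animal change of each gene with that of HSPA5, in liver, muscle and adipose tissue (circle, Pearson's r, filled where it passed; cross, Spearman's rho). Most chaperones and isomerases lie far right in liver (HYOU1 0.89) and adipose tissue (HSP90B1 0.90), and in muscle the crosses of ERN1, HERPUD1 and EIF2AK3 lie well left of their circles.

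ASNS was taken as the readout of the ATF4 arm. It was near the detection limit in liver, with a median of 11 counts per HCHF and 7 per LCLF library. There 1 of 29 correlated positively with its change and 2 negatively (n = 84). These counts are close to or below the shares of all genes, 6.54% and 6.68%. By rho 0 passed in either direction, and the share of all genes by rho was not counted. DDIT3 was the positive one by r (r = 0.31, rho = 0.23, adjusted p = 0.0345 and 0.135). The negative ones were DERL1 (r = -0.31, rho = -0.27, adjusted p = 0.0381 and 0.0775) and EDEM1 (r = -0.30, rho = -0.26, adjusted p = 0.0497 and 0.0858). Without the 2 farthest animals the r of DDIT3, DERL1 and EDEM1 were 0.22, -0.26 and -0.22. In batch 1 they were 0.52, -0.23 and -0.22 and in batch 2 0.30, -0.32 and -0.31. P4HB and SESN2, both at -0.27, did not pass. In adipose tissue 3 of 30 were positive and 1 negative (n = 95), close to or below the 8.58% and 7.8% of all genes. ATF4 had r = 0.40 (rho = 0.35, adjusted p = 0.00295 and 0.0206), 0.37 without the 2 farthest animals, 0.06 in batch 1 and 0.48 in batch 2. ERN1 (r = -0.37), CHAC1 (r = 0.37) and DERL1 (r = 0.33) passed by r and not by rho, and SYVN1 (r = 0.21) did not pass.

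In muscle 14 of 29 genes correlated negatively with ASNS and 1 positively, beside 21.4% and 18% of all genes. By rho 7 were negative and 0 positive, and the share of all genes by rho was not counted. DNAJB9 (r = -0.52, rho = -0.41), HSPA5 (r = -0.48, rho = -0.36), CANX (r = -0.45, rho = -0.34), DERL1 (r = -0.42, rho = -0.27) and XBP1 (r = -0.40, rho = -0.22) led. Their adjusted permutation p was 0.000299, 0.000422, 0.000422, 0.000883 and 0.00156 for r, and 0.00182, 0.00443, 0.00771, 0.0336 and 0.0966 for rho. Without the 2 farthest animals their r lay between -0.44 and -0.30. In batch 1 it was -0.64 to -0.55 and in batch 2 -0.47 to -0.30. SDF2L1 was the positive one (r = 0.28, rho = 0.22).

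Changes of the same gene were then correlated between tissues of an animal. Between liver and muscle 0 of 29 genes passed after adjustment (permutation test, n = 80), beside 7.31% positive and 0.119% negative of all genes. At an unadjusted p under 0.05, 8 of the 29 were positive. Shares of all genes at an unadjusted p were not counted. Between adipose tissue and muscle 0 of 30 passed after adjustment (n = 91), beside 0.948% positive and 0.0152% negative of all genes. At an unadjusted p under 0.05, 4 of the 30 were positive. Between liver and adipose tissue CANX passed (r = 0.42, rho = 0.41, adjusted p = 0.0179 and 0.0218, n = 82), with r = 0.48 without the 2 farthest animals, 0.68 in batch 1 and 0.38 in batch 2, beside 1.86% positive and 0.106% negative of all genes. HSPA5 did not pass in any pair, with r = 0.25 (rho = 0.41) between liver and muscle, r = 0.30 (rho = 0.25) between liver and adipose tissue and r = 0.0029 (rho = 0.02) between adipose tissue and muscle. Correlations were computed in 9 such sets, each adjusted over all genes tested.

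One animal of batch 1 stood apart in muscle and liver, chosen after its values were seen. Its HCHF muscle library held the highest muscle value of 15 of the 31 genes, and 18 genes were at 2-fold or more of the muscle median. ERN1 reached 730 CPM, 53.3-fold the median of all muscle libraries. DNAJB9 was at 627 CPM (25.4-fold), CHAC1 at 30.6 CPM (15.3-fold) and EIF2AK3 at 78.5 CPM (9.08-fold). HERPUD1 was at 1952 CPM (7.72-fold), PDIA3 at 457 CPM (7.28-fold), HSPA5 at 709 CPM (6.44-fold), XBP1 at 260 CPM (6.18-fold) and MANF at 41.5 CPM (5.12-fold). All 3 sensors were thus above the median, while ATF4 (0.85-fold), DDIT3 (0.46-fold) and SESN2 (0.85-fold) were below it. ASNS had 0 counts. The LCLF muscle library of the same animal stood between 0.547-fold (ASNS) and 1.675-fold (ERN1) of the median, with HSPA5 at 0.95-fold. The HCHF muscle library held 9.71 M counts, and its myocyte markers summed to 110900 CPM, against a median of 235400 CPM. Their part in these values was not tested.

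The HCHF liver library of that animal showed another set of genes. CHAC1 was at 63.3 CPM, 274-fold the median of liver libraries, SESN2 at 422 CPM (11.1-fold), HERPUD1 at 869 CPM (4.17-fold), ATF6 at 267 CPM (4.11-fold) and ATF4 at 557 CPM (1.93-fold), each the highest of all liver libraries. PDIA4, PDIA6, CALR and XBP1 lay at 0.43-, 0.42-, 0.50- and 0.38-fold. Hepatocyte markers summed to 53380 CPM in that library, against a median of 201600 CPM, and immediate early genes to 7666 CPM, against a median of 490 CPM. The LCLF liver library of the animal already had CHAC1 at 4.70 CPM, 20.4-fold the median, and PDIA6 at 0.55-fold. SESN2, PDIA4, CALR and XBP1 were at 1.17-, 0.98-, 0.998- and 0.89-fold there. Liver and muscle were also tested without this animal, an analysis chosen after seeing the data. For adipose tissue the animal of the matching adipose library was left out. Counts of genes higher and lower were then 1 and 16 for liver, 6 and 1 for muscle, and 14 and 5 for adipose tissue. Of all genes, 3338 were higher and 4189 lower of 14892 in liver, and 978 and 1054 of 13635 in muscle. In adipose tissue these were 3173 and 3376 of 16833. In adipose tissue the library with the most highest values was an LCLF library of another animal, the highest for 12 of 31 genes, with HYOU1 at 3.81-fold and HSPA5 at 3.07-fold of the median, and DNAJC3 and EDEM1 passed as higher without its animal.

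**Figure D5:**
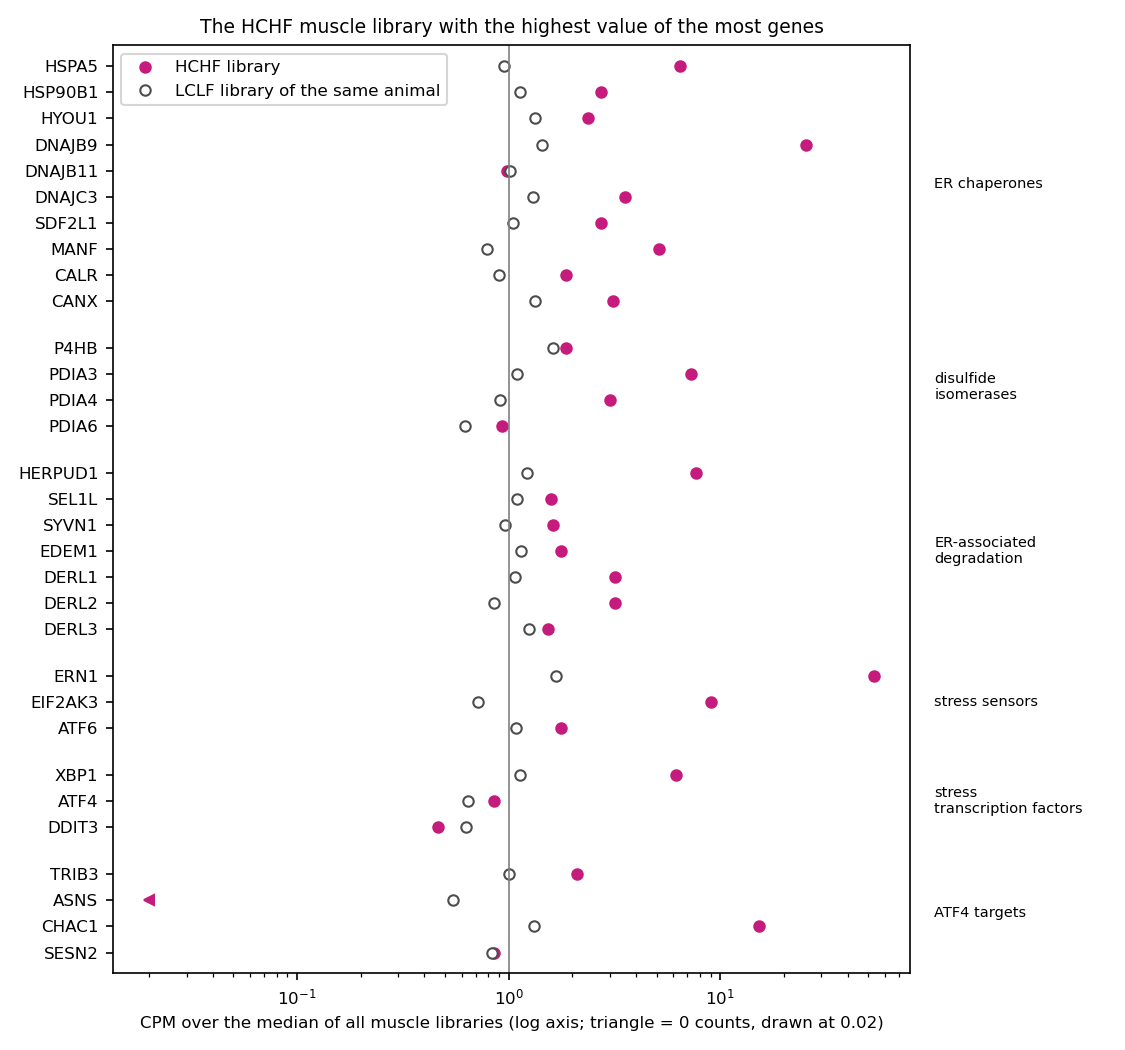
Level of each gene in the HCHF muscle library that held the most highest values (filled) and in the LCLF muscle library of the same animal (open), each over the median of all muscle libraries, on a log axis. The filled points reach 53.3-fold for ERN1 and 25.4-fold for DNAJB9 and lie below 1 for ATF4, DDIT3, SESN2 and ASNS, while the open points lie between 0.547 (ASNS) and 1.675 (ERN1).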

How the data were processed

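RNA was sequenced from biopsies of liver, muscle and adipose tissue. Per the submitters' processing notes, FastQC, STAR 2.7.7a and featureCounts were used. Settings, genome build, annotation and strand use are not stated in the labels or headers, and values of overlapping genes are therefore uncertain. Per the labels' protocols, batch 1 had an unstranded kit and single-end reads, batch 2 a stranded kit and paired-end reads, both of 50 bp. The values deposited by the authors are raw read counts per gene, in 2 tables of 34178 genes, one of all 588 libraries and one of the 570 that passed their quality control. From the larger table, 570 columns were not used.

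The diet was tested per tissue with R 4.3.3 and edgeR 4.0.16 (quasi-likelihood test, TMM scaling, filterByExpr with a minimum count of 10, a common dispersion from 1000 genes, the animal as a block, Benjamini-Hochberg over all genes at 0.05). Differences between tissues were tested by limma 3.58.1 on log2 CPM with a prior count of 2, and correlations with NumPy 2.4.6 and 100000 permutations, two-sided. Levels of single genes in CPM were TMM-scaled over all libraries, and sums over markers were not TMM-scaled. The edgeR test, the limma fit of differences and the correlations were tested on simulated data.

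The pairing comes from the animal number in the labels. HCHF and LCLF libraries of 1 animal deviated together from their group means (median r of 0.511 for liver, 0.488 for muscle, 0.479 for adipose tissue), whereas libraries of different animals had median r of -0.0122, 0.00518 and -0.00706. The first axis of the animals' means (20.8% of the variance) separated 16 animals from 83, and these were taken as batches 1 and 2.

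The genes, the lists and the tests were chosen with earlier results of these data known. All 32 genes are named whatever their result. Genes named from other pathway lists are among the 3 largest changes past the threshold per list and tissue, and from differences and correlations the 5 largest are named. Others, such as ATF6, SESN2, P4HB and ERN1 where they fall outside those 5, were named after their values were seen. Alternatives were RLE size factors, limma-voom, a minimum mean of 1 CPM, no animal block, DESeq2 1.42.0 with no block, and, by limma-voom, no filter, each batch alone and libraries that failed the authors' quality control. Alternatives chosen after seeing the data were marker sums as covariates and leaving out animals in doubt or apart. Sequences of promoters were not used here.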

Additional observations from a re-analysis of the deposited data

Results flagged for a closer look

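The diet effect differed between tissues for several genes, each by limma's test of the difference itself. These are the largest differences past the threshold for each pair of tissues, as log2 values.

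For liver minus muscle the difference was -0.47 for DNAJB9, 0.44 for ASNS, -0.38 for HSPA5, -0.35 for PDIA4 and -0.32 for HYOU1. For liver minus adipose tissue it was 0.56 for ASNS, -0.36 for TRIB3, -0.35 for HSPA5, -0.35 for DNAJB9 and -0.31 for PDIA4. For adipose tissue minus muscle it was -0.17 for SYVN1, -0.15 for DERL2 and -0.13 for DERL1.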

How the results depend on the processing

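TMM against RLE size factors, limma-voom, the libraries left out by the authors and the animals left out changed no count of genes per tissue by over 1.5 times, except that limma-voom called 0 lower in muscle. With marker sums as covariates, 0 genes were lower in liver, 0 passed in muscle, and 2 were higher and 2 lower in adipose tissue. Each estimate of that fit is the change of an animal in which none of the marker sums changed. There, 21 of the 30 liver genes changed sign, and P4HB alone passed the test. Of those called in either fit they were HSPA5 0.21, HSP90B1 0.15, DNAJB9 0.15, DNAJB11 0.0318, DNAJC3 0.0602, CALR 0.0734, P4HB 0.19, PDIA3 0.0329, PDIA4 0.0924, SEL1L 0.16, EDEM1 0.15, DERL1 0.13, ERN1 0.0771, SESN2 0.0233 and ASNS -0.0759, and in muscle (15 of 30), of the genes called, HSPA5 (-0.0028) and DERL1 (-0.0057). The cause was not tested. SESN2 in liver was 0.0226 in batch 1, where 1 animal went from 44.3 CPM on LCLF to 422 CPM on HCHF. In batch 1 alone 0 genes passed in any tissue or in any difference between tissues, and on LCLF 1 gene was lower in liver than in adipose tissue. Batch 1 holds 13 to 16 animals. In batch 2 alone 0 were lower in muscle, and 1 was higher for liver minus adipose tissue. At a mean of at least 1 CPM 0 were higher in liver and 0 lower in muscle, where DERL3 was not tested, and with no filter 0 were lower in muscle. Of all genes, 3001 were higher in liver and 990 lower in muscle at that mean. In muscle 795 of all genes were lower with no filter, 672 in batch 2 alone and 1149 by limma-voom.

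With no replicate block (the animal as a block left out, in place of the paired analysis) 10 genes were lower in liver and 0 in muscle. Calls also fell over all genes, with 2236 lower in liver and 133 in muscle, against 4046 and 1077 with the block. For liver minus muscle 0 were higher, for liver minus adipose tissue 1, and for adipose tissue minus muscle 1 was lower. SESN2 in liver was then at 0.0177 and ERN1 in muscle at 0.65 (adjusted p = 0.0027). Medians did not rise, with ERN1 at 12.9 CPM in HCHF and 13.99 CPM in LCLF muscle, and SESN2 at 34.7 and 40.2 CPM in liver. The highest HCHF libraries, at 730 CPM for ERN1 and 422 CPM for SESN2, were those of the animal that stood apart. The fit with no block was not run without that animal. DESeq2 with no block called 3 higher and 0 lower in muscle. Over all genes it called 411 higher and 132 lower there, against 906 and 1077 in the paired edgeR test.

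Of the correlations, negative ones with HSPA5 numbered 4 in muscle in batch 2 and 2 in adipose tissue with RLE. With ASNS in liver 0 were positive in batch 2 and 0 negative at a prior count of 0.5, and in muscle 4 were positive in batch 2 and 0 at a prior count of 0.5. Between liver and adipose tissue 0 passed in batch 2. Depth limits ASNS, CHAC1, SDF2L1, DERL3 and TRIB3 where they have few counts per library.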
